A study of Mus musculus with 2 samples.

Results

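The 34 genes described here mark T cells and natural killer (NK) cells, and the Ly49 (Klra) receptor genes were left out of them. They were chosen by name from cell biology, as genes of the T cell receptor complex and its signalling, T cell surface proteins, lineage transcription factors, NK receptors, cytotoxic granule proteins and secreted factors. Earlier results of these data were known when they were chosen. All 34 had a probe, and 52 of the 41174 gene probes on the array carried their names. Of these, 39 probes of 32 genes, out of 15105 genes in all, could be tested, since on each array their signal stood well above background in 1 or both channels. Cd4 and Cd28 did not pass this filter.

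The samples were immature B cells of mouse bone marrow. The autoreactive cells came from BALB.B mice of genotype 3-83Igi, Rag1-/-, H-2b, and the non-autoreactive cells from BALB/c mice of genotype 3-83Igi, H-2d. Both therefore carry the 3-83Igi antigen receptor, which binds H-2b class I molecules as its antigen, and the series asks how cells that meet this antigen differ from cells that do not. No age was given, mice were untreated, cells were pooled, and the pools were sorted as positive for B220 and negative for CD23, CD43 and IgD. The data are 2 arrays, on each of which 1 autoreactive pool (Cy5) was hybridised directly against non-autoreactive RNA (Cy3). The labels number the autoreactive pools only, so whether the non-autoreactive RNA was the same on both arrays is not known. Strain, haplotype, the Rag1 disruption and dye all follow the groups and cannot be told apart from autoreactivity.

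T cells recognise antigen through a receptor that signals with the CD3 chains, the kinases Lck and Zap70 and the adaptor Lat. NK cells carry no such receptor, read activating and inhibitory surface receptors instead, depend on interleukin 15 and kill with perforin and granzymes. Mice without Rag1 form no T cells and keep NK cells, and the B220 protein used in the sort is also found on plasmacytoid dendritic cells and on some NK cells. Several of the 34 genes have known expression in B lineage or dendritic cells, among them Ccl3, Ccl4, Id2, Cd2, Lat and Zap70.

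In each channel 54.1% to 57.4% of gene spots exceeded background by the scanner software's criterion, no gene spot was saturated, and both arrays lay on 1 slide read in 1 scan. The number of arrays limits the precision. B lineage genes such as Cd79a, Cd79b, Pax5 and Ebf1 were detected. By limma 3 of the 12 tested were higher in autoreactive cells, against 3.54% of all genes (Blnk at a log2 ratio of 1.08, Ighm at 1.00 and Vpreb3 at 0.85). Another 3 were lower, against 2.62% of all genes (Ms4a1 at -3.61, Pax5 at -1.05 and Ptprc at -0.85). All ratios are log2 values of autoreactive over non-autoreactive. Levels are log2 intensities of 1 probe in 1 channel, scaled between the arrays, and can be compared between channels for the same probe but not between genes. With 2 arrays there is 1 residual degree of freedom, against 5.10 that limma takes from the variances of all tested probes, so each standard error (SE, n = 2 arrays) leans on those.

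The T and NK cell genes differed far more between the arrays than between the groups on array 1. Array 1 gave them a median log2 ratio of -0.12 and array 2 one of -1.21, where the medians of all genes tested were 0.0088 and -0.010. Each gene was read from its brightest tested probe. On array 1 no member reached a ratio of -1 or below by that probe, as 0.94% of all genes did, although the dimmer Cd8b1 probe stood at -1.34. On the same array 24 lay below 0, against 48.2% of all genes, and 26 of 32 lay within 0.5 of 0, as did 89.9% of all genes. On array 2, 21 of the 32 lay at -1 or below, against 2.77% of all genes, and 30 lay below 0, against 51% of all genes. Of the 24 members well above background in both channels of both arrays, 14 lay at -1 or below on array 2, against 2.56% of all genes that pass the same filter. None of the 32 reached a ratio of 1 or above on array 1 (1.42% of all genes) or on array 2 (2.2%). In bulk samples such as these, fewer cells of a type and less RNA per cell cannot be told apart.

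**Figure D1:**
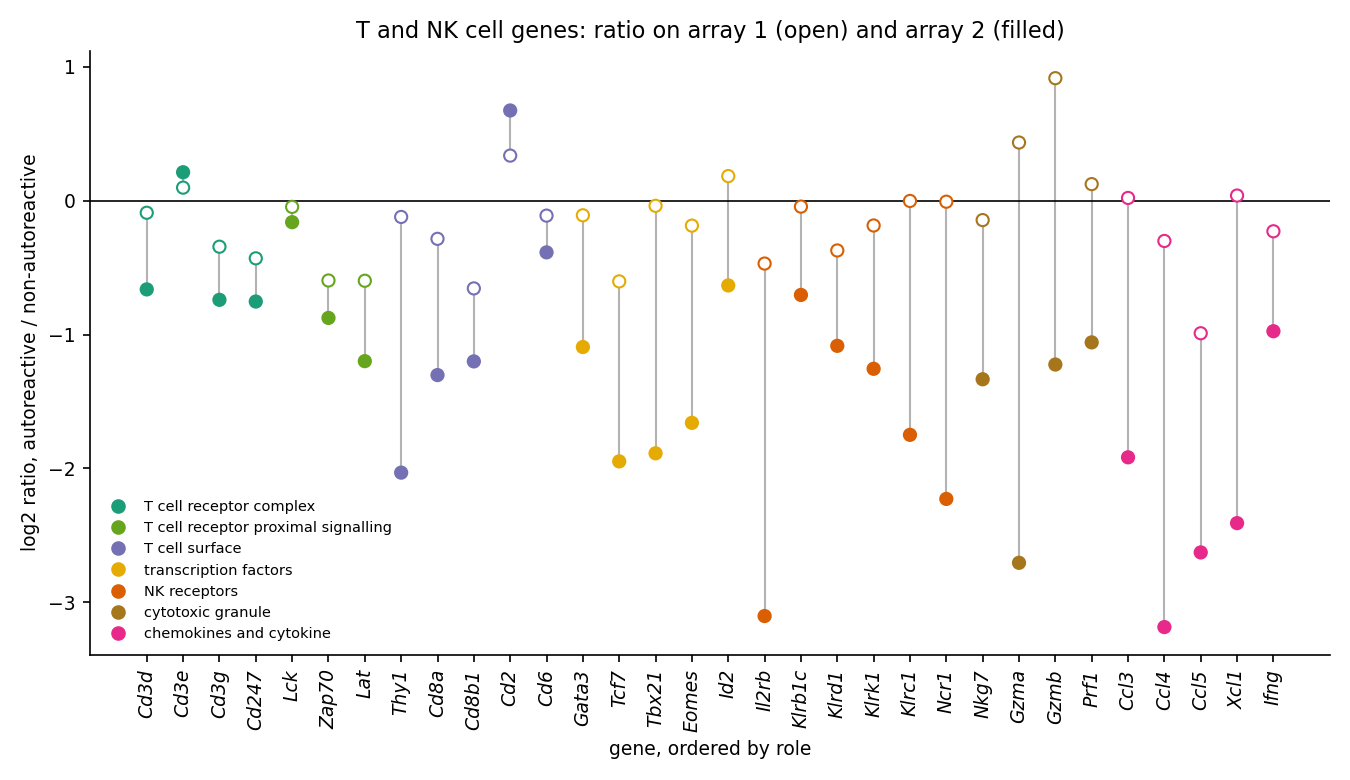
Log2 ratio of autoreactive over non-autoreactive cells for the 32 T and NK cell genes tested, with array 1 as open and array 2 as filled circles, coloured by role. The open circles lie between -0.99 and 0.92, and the filled ones reach down to -3.19, with Cd2 and Cd3e the only genes higher on array 2 than on array 1.

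The change between arrays was the log2 ratio on array 2 minus that on array 1. Its median was -1.04 over the 32 genes and -0.014 over all genes tested. It was negative for 30 of the 32, against 52.1% of all genes, and -1 or below for 17 of them, against 1.35% of all genes. None of the 32 was 1 or above, as 0.192% of all genes were. Just inside this limit stood Cd8a at -1.02 and just outside it Gata3 at -0.98. With a single array on each side these differences have no test. For spot error alone, which leaves out the spread between pools, 142 tested probes were printed 10 times, and their spots had a median SD of 0.056 in log2 ratio on array 1 and 0.054 on array 2. Without the 8 genes that were not well above background in the autoreactive channel of array 2, so that no gene could enter through a high level in non-autoreactive cells alone, 11 of 24 were -1 or below and the median was -0.78.

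Most of the difference lay in the autoreactive channel. The level in autoreactive cells was lower on array 2 than on array 1 for 30 of 32 genes, against 51.9% of all genes, with a median change of -0.77, and 14 of the 32 changed by -1 or below, against 0.96% of all genes. The level in non-autoreactive cells was higher on array 2 for 26 of 32, against 49.1% of all genes, with a median change of 0.30, and Ccl4 and Xcl1 changed by 1 or more, as 1.07% of all genes did. The autoreactive pool of array 2 gave the lowest of the 4 channel values for 29 of the 32 genes, against 30.6% of all genes. Among the 24 members well above background in all 4 channels it did so for 21, against 29.7% of all genes that pass the same filter. Its counterpart, the non-autoreactive channel of array 2, was the highest of the 4 for 23 of the 32 genes, against 27.6% of all genes. The counts of lowest and highest values are not independent, since both channel levels of an array hold the same log2 ratio. In intensities that were background-subtracted and not normalized, a reading chosen after seeing the data, the autoreactive channel of array 2 was the lowest for 16 of the 32 genes, where 1.69% of all genes were. The autoreactive change was larger in size than the non-autoreactive one for 25 of the 32 genes.

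**Figure D2:**
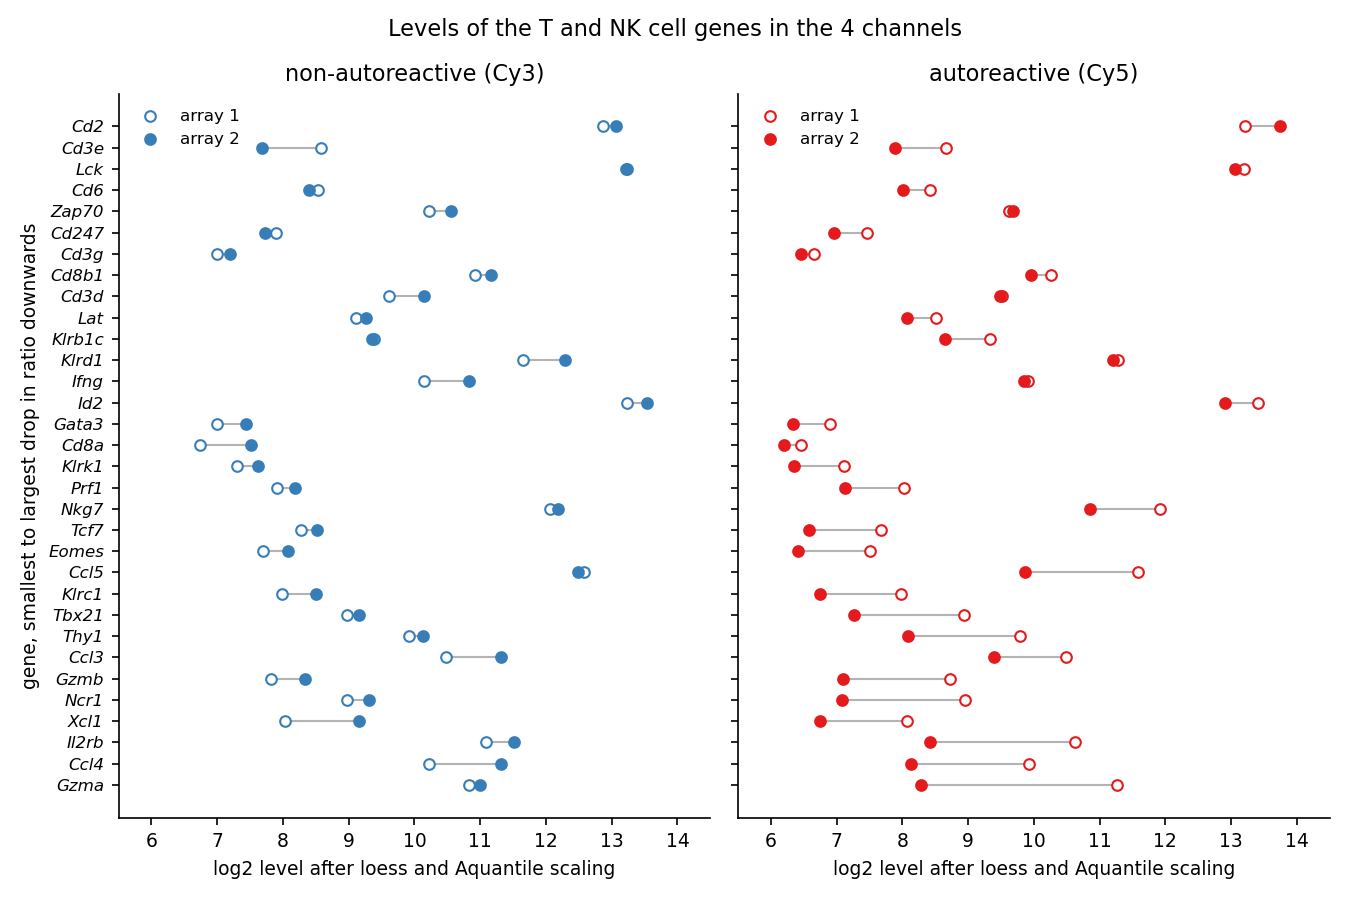
Log2 level of each of the 32 genes in non-autoreactive (left) and autoreactive cells (right), with array 1 as open and array 2 as filled circles, ordered from the smallest to the largest drop in ratio. In the lower rows the filled red circles lie well to the left of the open ones, down to -2.98 for Gzma, while the blue circles move less and mostly to the right.

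Averaged over both arrays, limma called 4 of the 32 genes lower in autoreactive cells (12.5%), against 2.62% of all genes. These were Zap70, Lat, Cd8b1 and Ccl5. No member was called higher, against 3.54% of all genes, and at an unadjusted p below 0.05 limma had Cd2 higher (12% of all genes) and 18 members lower (12.3% of all genes). The 4 calls were close to the threshold of 0.05 and all were lost with the deposited ratios, with a trended and robust variance, with the channels fitted separately and without a filter on dim probes. The call of Ccl5 was also lost as a mean over its probes (limma adjusted p = 0.0504). The remaining genes did not pass. Where the arrays disagreed most, as for Gzma, SEs reached 0.65. Others had small SEs and small mean ratios, such as Lck (-0.10 ± 0.12) and Cd3e (0.16 ± 0.12).

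The chemokines and interferon gamma, secreted by activated T and NK cells, had the lowest median ratio of the 7 role groups on array 2, at -2.41, with -0.23 on array 1. Ccl5, a chemokine of effector T and NK cells, stood at 11.58 and 9.86 in autoreactive cells and at 12.57 and 12.49 in non-autoreactive cells. Its ratios were therefore -0.99 on array 1 and -2.63 on array 2, lower on both, with a mean of -1.81 ± 0.35 (3.50-fold lower, limma adjusted p = 0.0431, 0.0189 to 0.220 over 10 settings). The other Ccl5 probe gave -0.97 and -2.69 (limma adjusted p = 0.0472). By the brightest probe of each gene Ccl5 had the lowest mean ratio of the 32 genes tested and the lowest on array 1, and the dimmer Cd8b1 probe was lower in both.

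Ccl4 and Ccl3, chemokines that recruit other immune cells and are also induced by antigen in B cells, behaved alike. Ccl4 read 9.92 and 8.13 in autoreactive cells against 10.22 and 11.32 in non-autoreactive cells. Its ratios of -0.30 and -3.19 averaged -1.74 ± 0.60 (limma adjusted p = 0.159). Ccl3 read 10.50 and 9.40 against 10.47 and 11.31, with ratios of 0.021 and -1.92. In these genes the channels lay together on array 1 and moved in opposite directions on array 2, where the autoreactive level was lower and the non-autoreactive level higher.

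Xcl1, the chemokine that attracts cross-presenting dendritic cells, read 8.07 and 6.74 in autoreactive and 8.03 and 9.15 in non-autoreactive cells. Its ratio was 0.039 on array 1 and -2.41 on array 2, where autoreactive cells gave no signal well above background, so that the size of the second ratio is uncertain. Ifng, which encodes interferon gamma, kept a level of 9.91 and 9.86 in autoreactive cells while that in non-autoreactive cells was 10.14 and 10.83. Its ratios of -0.23 and -0.97 thus differed through the non-autoreactive channel. A second Ifng probe, printed 10 times, gave -0.14 ± 0.055 (SD of 10 spots) on array 1 and -0.75 ± 0.037 (SD of 9 spots) on array 2. These SDs cover spot error only and not the spread between pools.

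The 4 cytotoxic granule genes had a median ratio of 0.28 on array 1 and -1.28 on array 2. Gzma, which encodes granzyme A, read 11.27 in autoreactive and 10.84 in non-autoreactive cells on array 1, and 8.29 and 11.00 on array 2. The ratio was 0.43 on array 1 and -2.71 on array 2, a difference of -3.14 that only 1 of the 15105 genes exceeded in that direction. The mean of -1.14 ± 0.65 (limma adjusted p = 0.342) describes neither array. Gzmb, encoding granzyme B, went from a ratio of 0.92 to -1.22, the highest of the members on array 1 and among the 21 at -1 or below on array 2. Its levels in autoreactive cells were 8.73 and 7.11, and in non-autoreactive cells 7.82 and 8.33. Under median centring the mean ratio of Gzmb was 0.10 in place of -0.15.

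Prf1, the gene of the pore-forming protein perforin, stood at 8.03 and 7.13 in autoreactive and 7.91 and 8.18 in non-autoreactive cells, giving ratios of 0.12 and -1.06. Nkg7, a granule membrane protein gene, gave -0.14 and -1.33 by its brighter probe and 0.19 and -0.81 by the other. The brighter probe read 11.91 and 10.85 in autoreactive cells and 12.06 and 12.19 in non-autoreactive cells. All 4 genes of this group were at least 2-fold lower on array 2 than on array 1, and 3 of them were above 0 on array 1.

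The promoters of the granule, chemokine and receptor genes with the largest differences are shown to let their sequence be set beside the values. RefSeq (GRCm38.p6) gave a window of 250 bases upstream of the start for 24 of the 34 members, and the windows of the 4 members with the largest differences among these follow, 5′ to 3′ on the gene's strand. Capitals mark TGTGGT or its reverse complement ACCACA, the core bound by Runx factors, and GTGTGA or its reverse complement TCACAC, a core of T-box factors such as T-bet and Eomes. The windows are chr13:113100982-113101231 on the minus strand for Gzma, chr1:164935523-164935772 on the minus strand for Xcl1, chr7:4337465-4337714 on the plus strand for Ncr1 and chr14:56262335-56262584 on the minus strand for Gzmb.
Gzma: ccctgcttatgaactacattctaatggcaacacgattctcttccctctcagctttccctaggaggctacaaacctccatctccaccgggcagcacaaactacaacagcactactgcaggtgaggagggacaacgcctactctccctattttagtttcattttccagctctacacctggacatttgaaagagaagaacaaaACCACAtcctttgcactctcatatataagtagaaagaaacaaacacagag
Xcl1: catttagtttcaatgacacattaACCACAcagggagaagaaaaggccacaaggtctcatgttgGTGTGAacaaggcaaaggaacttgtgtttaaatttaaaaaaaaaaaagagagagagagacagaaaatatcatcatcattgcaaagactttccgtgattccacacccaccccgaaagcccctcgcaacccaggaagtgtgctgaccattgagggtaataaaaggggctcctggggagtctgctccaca
Ncr1: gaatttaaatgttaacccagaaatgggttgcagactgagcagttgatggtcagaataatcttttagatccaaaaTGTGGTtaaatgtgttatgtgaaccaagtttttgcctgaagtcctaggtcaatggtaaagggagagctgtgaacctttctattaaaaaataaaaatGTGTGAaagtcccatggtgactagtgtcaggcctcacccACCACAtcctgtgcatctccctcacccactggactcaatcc
Gzmb: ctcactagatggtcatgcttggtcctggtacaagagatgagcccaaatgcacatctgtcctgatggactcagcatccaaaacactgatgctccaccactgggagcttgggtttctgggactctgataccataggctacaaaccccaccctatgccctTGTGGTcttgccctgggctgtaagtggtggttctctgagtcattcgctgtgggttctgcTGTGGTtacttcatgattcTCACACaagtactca

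All 4 printed windows held a Runx core, and those of Xcl1, Ncr1 and Gzmb a T-box core as well. Among the 13 members with a window that were at least 2-fold lower on array 2 than on array 1, 9 held the Runx core (69.2%) and 4 the T-box core (30.8%). Among all 24 members with a window, these 13 included, 11 held the Runx core (45.8%) and 5 the T-box core (20.8%). Outside the 13, only Klrb1c and Lck held the Runx core and only Lck the T-box core. In windows of the same length, 14.2% of 27025 genes held the Runx core and 12.2% the T-box core. A match of letters is a description and not a binding site.

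NK receptor genes followed the granule genes. Il2rb, the interleukin 15 and interleukin 2 receptor beta chain gene that NK cells need, read 10.62 and 8.42 in autoreactive cells and 11.09 and 11.52 in non-autoreactive cells. Its ratios of -0.47 and -3.10 (8.59-fold lower on array 2) averaged -1.79 ± 0.55 (limma adjusted p = 0.131). Ncr1, which encodes the NK receptor NKp46, read 8.96 and 7.08 against 8.97 and 9.31, with ratios of -0.0072 and -2.23. The 2 groups were level on array 1 and 4.68-fold apart on array 2.

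Klrc1, encoding the inhibitory receptor NKG2A, was level on array 1 (7.98 in both channels) and stood at 6.75 against 8.50 on array 2, a ratio of -1.75. Its second probe gave 0.0055 and -0.81. Klrk1, the gene of the activating receptor NKG2D, had ratios of -0.18 and -1.26. For Klrc1 and Klrk1 the autoreactive signal on array 2 was not well above background, and Klrc1 has close relatives in Klrc2 and Klrc3 whose RNA its probes could also bind. Klrd1, the CD94 partner chain of NKG2 receptors, had smaller ratios of -0.37 and -1.08, with autoreactive levels of 11.28 and 11.21 and non-autoreactive levels of 11.65 and 12.29. Klrb1c, the gene of NK1.1, gave -0.044 and -0.70. All 6 NK receptor genes were lower on array 2 than on array 1, with differences of -0.66 to -2.63.

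The Ly49 genes, NK receptors of the same chromosome 6 as Klrb1c, Klrd1, Klrk1 and Klrc1, gave other values. Of 15 tested, limma called 8 higher in autoreactive cells, against 3.54% of all genes, and 1 lower, against 2.62%. Array 1 gave a median of 0.91 and array 2 of 1.05. Klra16 read 3.55 and 4.42 and Klra7 2.96 and 3.81, higher on both arrays, and Klra20 was lower (-0.68 and -1.21). A probe that the file names Klra22 and RefSeq places under Klra1 gave 3.23 and 4.45. Only 5 of the 15 were lower on array 2 than on array 1 (52.1% of all genes), and none by 1 or more (1.35%). Klra17 had the largest such drop, with ratios of -0.065 and -0.97. Many genes of this family are alike in sequence and differ between strains, so a probe may not be specific to a single member.

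**Figure D3:**
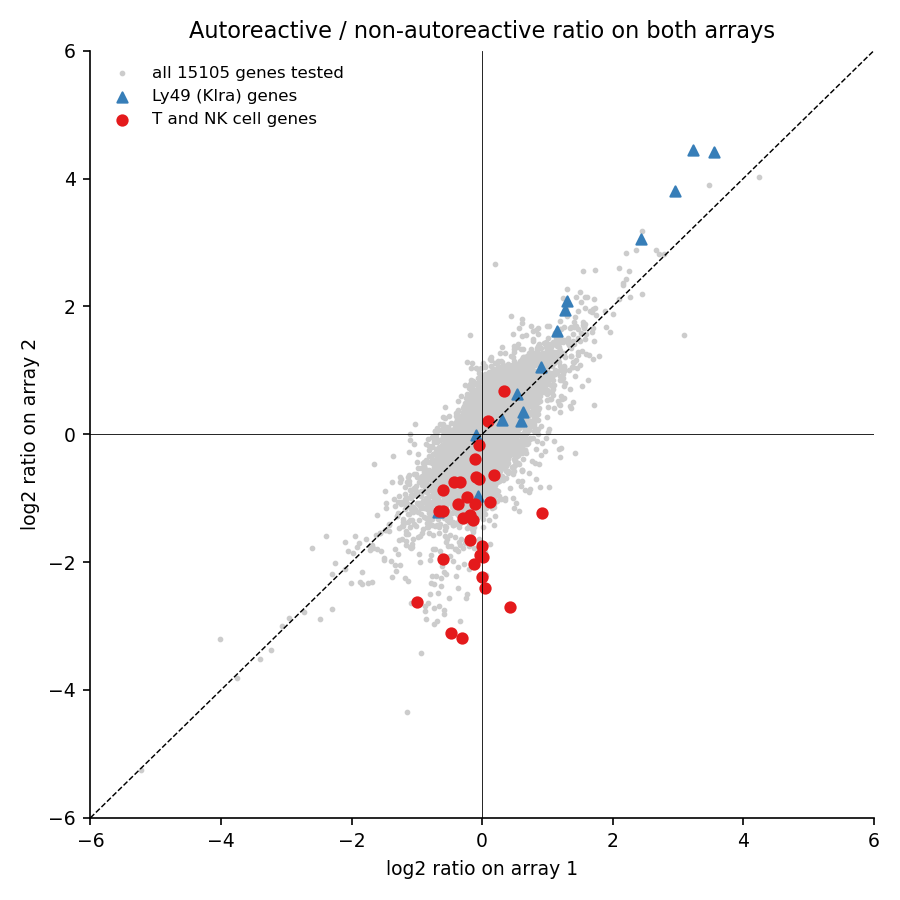
Log2 ratio on array 1 (horizontal) and on array 2 (vertical) of all 15105 genes tested in grey, of the 32 T and NK cell genes in red and of 15 Ly49 genes as blue triangles, with equal ratios on the dashed line. Most red points hang below the cloud near 0 on array 1, down to -3.19 on array 2, and the blue triangles lie along the line up to 4.45.

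Lineage transcription factors were lower on array 2 as well. Tbx21, which encodes T-bet, the factor of NK and type 1 T cells, read 8.94 and 7.27 in autoreactive and 8.98 and 9.16 in non-autoreactive cells, with ratios of -0.038 and -1.89. Its relative Eomes gave -0.19 and -1.66, from 7.51 and 6.41 against 7.70 and 8.07. Both averaged close to -1 (-0.96 ± 0.39 and -0.92 ± 0.32), and neither passed (limma adjusted p = 0.215 and 0.165).

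Tcf7, which encodes the T cell factor TCF-1, was lower on both arrays. Its brighter probe gave -0.60 and -1.95 (-1.27 ± 0.30, limma adjusted p = 0.0697) and its other probe -0.47 and -0.71. The levels of the brighter probe were 7.67 and 6.58 in autoreactive and 8.28 and 8.52 in non-autoreactive cells. Gata3, required for T cells and type 2 responses, had ratios of -0.11 and -1.09. Tcf7, Eomes and Gata3 were not well above background in autoreactive cells on array 2. Id2, an inhibitor of E proteins needed by NK and other innate lymphoid cells, gave 0.18 and -0.63, its other probe 0.36 and -0.56.

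Genes of the T cell receptor complex showed less of this, with a median ratio of -0.22 on array 1 and -0.70 on array 2. Cd3e stood at 8.67 and 7.89 in autoreactive and 8.57 and 7.68 in non-autoreactive cells, lower on array 2 in both channels, so that its ratios were 0.098 and 0.21. Cd3d gave -0.090 and -0.66, and Cd247, the zeta chain gene also used by NK receptors, -0.43 and -0.75. Cd3g had no autoreactive signal well above background on either array, and over both arrays its mean was at least 1.30-fold lower (limma adjusted p = 0.0972). Its measured ratios were -0.34 on array 1 and -0.74 on array 2. The bound sets the brighter channel against the detection limit of the dimmer one, or against the probe's own signal where that was higher, and dye bias can move it. None of the 4 genes reached a difference of -1 between the arrays.

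Of the signalling genes next to the receptor, Zap70 and Lat were lower on both arrays. Zap70, the kinase that binds the phosphorylated CD3 chains, read 9.62 and 9.68 in autoreactive and 10.21 and 10.56 in non-autoreactive cells. Its ratios of -0.60 and -0.88 averaged -0.74 ± 0.13 (limma adjusted p = 0.0351, 0.0324 to 0.257 over 10 settings). Lat, the adaptor that Zap70 phosphorylates, read 8.51 and 8.07 against 9.11 and 9.27. Its ratios of -0.60 and -1.20 had a mean of -0.90 ± 0.17 (limma adjusted p = 0.0410, 0.0315 to 0.228 over 10 settings). Lck, the kinase of the CD4 and CD8 coreceptors, had a high and even signal, 13.19 and 13.06 against 13.24 and 13.22, and ratios of -0.046 and -0.16. Median centring, which puts the median of all genes at 0.58, turned the mean ratio of Lck to 0.77 and that of Id2 to 0.66 and called both higher.

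Among T cell surface genes, Thy1, the Thy-1 antigen of T cells and some other blood cells, moved most. It read 9.79 and 8.09 in autoreactive and 9.91 and 10.12 in non-autoreactive cells, so its ratios were -0.12 and -2.03 (-1.08 ± 0.41, limma adjusted p = 0.188). Cd8b1, the CD8 beta chain gene, was called lower by both of its probes. The brighter one read 10.26 and 9.96 against 10.92 and 11.16, with ratios of -0.66 and -1.20 and a mean of -0.93 ± 0.16 (limma adjusted p = 0.0324, 0.0296 to 0.220 over 10 settings). With median centring this call and that of Zap70 were lost as well. This probe is placed on chromosome 5 in the scanner files, while RefSeq has Cd8b1 on chromosome 6. The other probe, placed on chromosome 6, gave larger ratios of -1.34 and -3.17 (limma adjusted p = 0.0300), although its autoreactive signal on array 2 did not reach well above background.

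Cd8a, the CD8 alpha chain gene, had no autoreactive signal well above background on either array, and over both arrays its mean was at least 1.42-fold lower (limma adjusted p = 0.126). Its measured ratios were -0.28 and -1.30, and its levels in non-autoreactive cells were 6.74 and 7.51. A Cd8a probe printed 10 times, not tested and with a bound of 1.12-fold, gave -0.21 ± 0.11 (SD of 9 spots) on array 1 and -0.67 ± 0.11 (SD of 8 spots) on array 2. Cd6, a T cell and B-1 cell glycoprotein gene, gave -0.11 and -0.39. Cd2, an adhesion receptor gene that mouse B cells also express, was the one member above 0 on both arrays by more than 0.3, at 0.34 and 0.67 (0.51 ± 0.14, limma adjusted p = 0.103), and median centring called it higher. The Cd4 probe with 10 spots was well above background in both channels of array 1 and in neither of array 2, with ratios of 0.10 and 0.087. The Cd28 probe with 10 spots was above background in the non-autoreactive channel of array 2 alone, with ratios of -0.19 and -0.76.

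Other T and NK genes, outside the 34, were read from lists of the same cell types. Of 27 further T cell genes, 17 were tested. Limma called Il7r higher (0.68), a receptor gene that early B cells also use, and Cd5 lower (-1.49 and -1.50 on the arrays). Over all genes limma called 3.54% higher and 2.62% lower. Of the 17, 16 were lower on array 2 than on array 1, against 52.1% of all genes, with a median difference of -0.58. Of 29 further NK and cytotoxic cell genes, 17 were tested. Only Slamf7 was called, as higher (0.75), and 15 of the 17 were lower on array 2, against 52.1% of all genes, with a median difference of -0.91. The genes tested were 17 of the 24 T cell and 17 of the 27 NK and cytotoxic genes with a probe, where 22613 of all 41174 probes were tested. Bcl11b and Themis of T cells and Itga2 of NK cells had no probe well above background in any channel. Others were detected and lower on array 2, such as Cd7 (-0.69 and -2.92), Sh2d1a (-0.027 and -1.74) and Cxcr3 (-0.59 and -2.81). The T cell receptor constant region genes Trac and Trbc1 had no probe by those names and were not analysed here.

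Markers of plasmacytoid dendritic and myeloid cells were mostly lower on array 2 than on array 1, as the T and NK cell genes were, and erythroid markers were not. Erythroid and most myeloid cells lack B220, and most T, NK and myeloid cells carry CD43, against which the cells were sorted. All 11 myeloid and all 7 erythroid genes with a probe nonetheless passed the filter in these pools. Whether the sort bears on any of these values was not tested. All 17 plasmacytoid dendritic cell genes tested were below 0 on array 2 (51% of all genes) and 16 on array 1 (48.2%). Array 1 gave a median of -0.70 and array 2 one of -1.74. Limma called 4 of them lower, against 2.62% of all genes, among them Upb1 (-1.58), Cox6a2 (-1.22) and Ptprs (-1.09). Siglech, a defining receptor gene of these cells that was picked after its values were seen, read 8.37 and 6.91 in autoreactive and 9.24 and 9.68 in non-autoreactive cells. Of 11 myeloid genes, 10 were lower on array 2 than on array 1, against 52.1% of all genes. Their median difference was -0.70, and limma called Ltf lower (-0.84). Of 7 erythroid genes 3 were lower on array 2, the median difference was 0.015, and Slc4a1 was called lower (-0.75). The 12 B cell genes had a median difference of 0.15, and 3 of them were lower on array 2. The part of these other cells in the ratios of the T and NK cell genes was not tested.

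**Figure D4:**
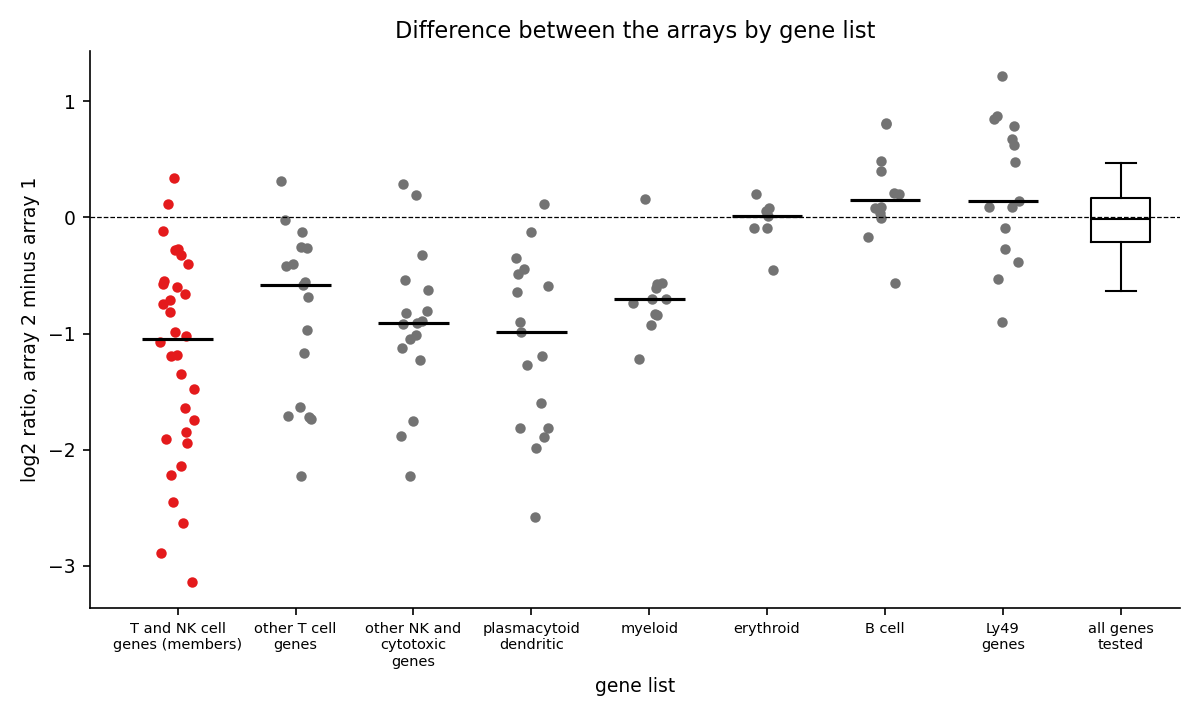
Difference in log2 ratio between array 2 and array 1 for each gene of the lists (points, with a bar at the median) and for all genes tested (box from the lower to the upper quartile, whiskers at the 5th and 95th percentiles). The T and NK cell genes have a median of -1.04 and reach -3.14, the plasmacytoid dendritic and other NK lists have medians of -0.99 and -0.91, and the erythroid, B cell and Ly49 lists lie near or above 0.

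Members on and off a list of 10 genes known in B lineage or dendritic cells were both mostly lower on array 2. Being off this list does not show that a gene is silent in those cells. Of 23 tested members off the list, 22 were lower on array 2 than on array 1, against 52.1% of all genes. By 1 or more 13 were lower, against 1.35% of all genes, and the median difference was -1.18. Of the 9 tested members on the list, 8 were lower, 4 of them by 1 or more, with a median of -0.82. Over the whole array 204 genes were lower on array 2 by 1 or more, 17 of them T and NK cell members (8.33%) and 22 more from the other lists. Of the 20 largest such differences 6 were those of members, namely Gzma, Ccl4, Il2rb, Xcl1, Ncr1 and Gzmb. The largest of all was that of Klk1b5 (-3.19), which is on no list, and Runx2, Cd7 and Cxcr3 of the other lists were also among the 20. Such a drop was thus not particular to the members. Of the 17 plasmacytoid dendritic cell genes tested, 8 were lower by 1 or more.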

How the data were processed

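Total RNA of sorted bone marrow cells (0.5 ug per sample) was amplified, labelled and hybridised to 2 two-colour Agilent arrays, per the labels. The authors deposited Agilent Feature Extraction 9.5.1.1 output, which gives spot intensity and local background for each channel and, per the file headers, a background-subtracted and dye-normalized log10 ratio (Cy5 over Cy3). The series' value table repeats those ratios to within 5e-10.

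Intensities were corrected with normexp (offset 50) and loess-normalized within arrays in limma 3.58.1 (R 4.3.3). Control and outlier spots had weight 0 in loess and were then left out, the spots of a probe were averaged, and 22613 probes whose signal exceeded background on each array, in 1 or both channels, were tested against 0 with lmFit and eBayes, two-sided, Benjamini-Hochberg adjusted over all of them. A gene was read from its brightest probe. Channel levels were scaled between arrays with Aquantile. The procedure was tested on simulated data. Nothing says that pools came from separate animals, so p-values measure the spread between these arrays. Members and lists were chosen with earlier results of these data known. Named in full are members called, at an absolute ratio of 1 or more on an array, or differing by 1 or more between arrays, and of each other list up to 3 called genes in each direction. Promoter windows and gene names came from RefSeq (GRCm38.p6). The files' probe positions name no build. Figures were drawn with matplotlib 3.10.9.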

Additional observations from a re-analysis of the deposited data

How the results depend on the processing

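The difference between the arrays kept its direction in the 8 settings that could give it, with a median over the T and NK cell genes between -0.78 (24 genes well above background in both channels) and -1.74 (deposited ratios). The count of members at least 2-fold lower on array 2 was 16 to 19 in the 7 settings other than that stricter filter, which left 11 of 24 (1.19% of all genes). The autoreactive channel of array 2 was lowest for 21 of 24 members under the stricter filter, for 28 of 32 with loess alone and for 16 in intensities that were not normalized (1.69% of all genes). These counts were chosen after seeing the data.

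The count of members called lower was less stable. It was 1 with the deposited ratios (Cd3g), 8 with median centring, and 0 with no filter on dim probes, with a trended and robust variance and with separate channels. Median centring also called 4 members higher, Cd2, Cd3e, Id2 and Lck, with the median of all genes at 0.58, and put Gzmb at 0.10. The cause was not tested. The shares of all genes called in these other settings are not given here. The counts of members called in them, such as the 4 higher and 8 lower, are therefore no result about the members. On the array left without replicate 1, 21 members were at least 2-fold lower, and 0 on the array left without replicate 2, with 0 higher on either. The median ratio then ranged from -1.21 to -0.12. Single arrays gave -1.92 to 0.021 for Ccl3, -2.71 to 0.43 for Gzma, -1.22 to 0.92 for Gzmb, -1.06 to 0.12 for Prf1 and -2.41 to 0.039 for Xcl1. Id2, at 0.18 and -0.63, also changed sign, which makes 6 of 32. No paired analysis was possible because the only labelled replicate numbers are those of the autoreactive pools, and each ratio is already paired within its array. Both arrays share slide and scan, so neither could be fitted as a block.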
